A study of Mus musculus with 3 samples.

Results

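NR2F2 binding peaks were examined around 10 genes of fibroblast growth factor (FGF) signalling in the fetal mouse testis: the receptor genes Fgfr1, Fgfr2, Fgfr3 and Fgfr4, and the feedback inhibitor genes Spry1, Spry2, Spry4, Spred1, Spred2 and Dusp6. A peak was taken when the nearest transcription start site (TSS) belonged to 1 of these genes, or when the peak lay within 100 kb of such a TSS. By this rule 39 of the 10069 peaks were members, 24 of them with a member as the nearest gene and 15 by the window only. NR2F2, also named COUP-TFII, is a nuclear receptor that binds DNA. Chromatin came from 30 pooled whole testes of CD-1 mouse embryos, an outbred stock, at E14.5, an embryonic stage given in days after mating, with no genetic change and no treatment in any library. The 2 ChIP libraries were precipitated with an antibody to COUP-TFII and the 1 input library was sheared chromatin sequenced without precipitation. The values are raw counts of reads in peaks of 300 bp, in mm10 coordinates.

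FGF receptors are tyrosine kinases at the cell surface that bind FGF ligands together with heparan sulfate and pass the signal through the adaptor FRS2 to RAS and the MAP kinase cascade. Sprouty and Spred proteins inhibit this route around RAS and RAF, and DUSP6 is a phosphatase that removes the activating phosphates from ERK. Several of these inhibitors are themselves induced by the pathway, and FGF9 acting through FGFR2 is known for its part in fetal testis development.

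The rule gave from 2 to 6 NR2F2 peaks per gene, although Fgfr3 was the nearest gene to 0 of its 5 and Fgfr4 to 1 of its 5. Both ChIP counts exceeded the input count at all 39 of them, as at 99.9% of all peaks. The ChIP to input ratio of the typical member peak was about that of the typical NR2F2 peak: the median ratio was 5.77 for ChIP replicate 1 and 5.00 for replicate 2, against 5.11 and 4.39 over all peaks, and 0 of 39 member peaks were called above the typical peak, beside 1.53% of all peaks, and 0 below, beside 0.0497%. The highest summed ChIP count lay in an intron of Fgfr1, with 93 and 74 ChIP counts over 11 in the input. Among the inhibitor genes the largest summed ChIP count stood 1122 bp upstream of Dusp6, with 67 and 44 counts over 5.

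The sequences that carry these peaks are shown first, to set the letters of NR2F2 sites beside the counts. Nuclear receptors of this class bind hexamers called half-sites. The letters searched on both strands were the half-site AGGTCA or GGGTCA, the extended forms AGAGGTCA and AGGGGTCA, which contain a half-site, CAAGGTCA, a form that NR5A1 is known to bind and that contains AGGTCA, and TGANTCA, an AP-1 type site. A half-site on the minus strand reads TGACCT or TGACCC here. All stretches are from the plus strand of GRCm38, the assembly of mm10, and are credited to RefSeq. Capitals mark half-sites, extended sites and TGANTCA matches.

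The extended form was present in 4 member peaks, and in 3 of them it lay 8, 9 and 30 bp from the peak centre. These stretches, from Fgfr1 (chr8:25514456-25514555), Spry2 (chr14:105870506-105870605) and Spred1 (chr2:117108269-117108448), are shown for that match. The last also holds CAAGGTCA, of which AGGTCA is in capitals.
Fgfr1 upstream: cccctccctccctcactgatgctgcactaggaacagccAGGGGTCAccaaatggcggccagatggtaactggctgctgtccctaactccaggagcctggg
Spry2 downstream: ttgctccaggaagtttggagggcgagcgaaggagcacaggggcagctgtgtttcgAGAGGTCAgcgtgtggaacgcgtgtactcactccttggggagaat
Spred1 upstream: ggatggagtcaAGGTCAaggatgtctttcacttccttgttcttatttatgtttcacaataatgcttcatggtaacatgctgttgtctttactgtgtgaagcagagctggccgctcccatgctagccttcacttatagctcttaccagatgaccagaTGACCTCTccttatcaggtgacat

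Closely spaced half-sites on the same strand were present in 3 member peaks. They lay in an Fgfr2 intron (chr7:130223064-130223363), in the last part of Fgfr4 (chr13:55167946-55168065) and in the coding exon of Spry1 (chr3:37642850-37643149). The Fgfr2 stretch holds 4 half-sites and a TGANTCA match, and its pair on the minus strand is 1 base apart. The Spry1 stretch holds 3 half-sites in a row on the plus strand, the first pair 1 base apart and the next 4 bases apart. The pair at the right of the Fgfr4 stretch is 5 bases apart. The label of that stretch names what lies at the peak centre, a coding exon, and was not assigned base by base.
Fgfr2 intron: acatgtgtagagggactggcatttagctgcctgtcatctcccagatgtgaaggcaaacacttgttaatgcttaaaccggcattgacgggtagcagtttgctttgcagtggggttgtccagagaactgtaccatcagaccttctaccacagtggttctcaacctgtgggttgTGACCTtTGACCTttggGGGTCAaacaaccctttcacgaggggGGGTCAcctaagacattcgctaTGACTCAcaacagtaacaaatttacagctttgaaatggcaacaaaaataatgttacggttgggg
Fgfr4 exon: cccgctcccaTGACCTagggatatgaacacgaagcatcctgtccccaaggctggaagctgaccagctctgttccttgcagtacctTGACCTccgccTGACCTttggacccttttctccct
Spry1 exon: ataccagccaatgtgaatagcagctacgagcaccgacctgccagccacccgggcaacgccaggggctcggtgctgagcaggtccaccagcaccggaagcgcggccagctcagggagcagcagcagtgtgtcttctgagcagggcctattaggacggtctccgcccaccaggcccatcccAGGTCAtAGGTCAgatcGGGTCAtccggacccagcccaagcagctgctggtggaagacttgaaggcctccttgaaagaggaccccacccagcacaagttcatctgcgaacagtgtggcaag

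The peaks with the highest summed ChIP count among the receptor and among the inhibitor genes held none of these letters. They are an Fgfr1 intron peak (chr8:25546888-25547187) and the peak upstream of Dusp6 (chr10:99261810-99262109), shown whole for contrast. No match says only that these letters are not in the window.
Fgfr1 intron: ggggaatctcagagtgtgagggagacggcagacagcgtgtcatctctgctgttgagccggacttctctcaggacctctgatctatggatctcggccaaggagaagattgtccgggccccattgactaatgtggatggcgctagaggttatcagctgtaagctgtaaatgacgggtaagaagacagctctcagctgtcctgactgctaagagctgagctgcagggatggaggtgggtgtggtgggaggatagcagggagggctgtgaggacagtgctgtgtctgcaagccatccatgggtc
Dusp6 upstream: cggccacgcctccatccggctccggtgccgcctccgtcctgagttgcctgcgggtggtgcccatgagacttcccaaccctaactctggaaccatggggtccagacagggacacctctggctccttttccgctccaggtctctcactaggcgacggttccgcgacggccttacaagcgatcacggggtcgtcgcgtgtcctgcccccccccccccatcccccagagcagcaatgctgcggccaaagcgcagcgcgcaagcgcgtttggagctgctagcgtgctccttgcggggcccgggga

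Over the whole set, a half-site was found in 25 of 39 member peaks (64.1%), beside 58.9% of all placed peaks and 27.5% of 32851 RefSeq promoter windows of the same length. The extended form was found in 4 of 39 (10.3%, 95% Wilson interval 4.06 to 23.6), beside 10.5% of all placed peaks and 2.63% of promoter windows. All 4 were among the 24 peaks with a member as the nearest gene (16.7%). With peaks over a TSS or up to 1 kb upstream left out, a half-site was in 22 of 32 member peaks (68.75%). It was in 64.7% of the placed peaks that remained. The extended form was then in 4 of 32 (12.5%), beside 12.9%. CAAGGTCA and TGANTCA were each found in 2 member peaks (5.13%), beside 6.72% and 4.98% of all placed peaks, and 1.56% and 7.81% of promoter windows.

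The spacing of half-site pairs was examined after the member sequences had been seen. A same-strand pair 1 base apart, an arrangement that dimers of COUP-TF and other nuclear receptors are known to bind, occurred in 2 member peaks (5.13%), those of the Fgfr2 intron and the Spry1 exon. It occurred in 239 of 10064 placed peaks (2.37%) and in 42 promoter windows (0.128%). Among spacings of 0 to 10 bases it was the most frequent over all peaks. The spacings of 4 and 5 bases, seen at Spry1 and Fgfr4, occurred in 0.378% and 0.348% of all peaks.

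**Figure D1:**
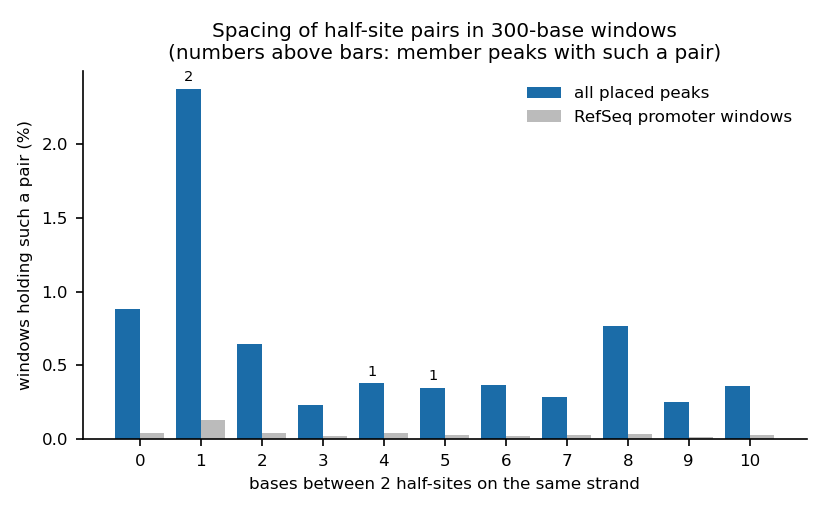
Share of 300-base windows (percent, vertical axis) that hold 2 half-sites on the same strand, by the number of bases between them (horizontal axis), for the 10064 placed peaks and 32851 RefSeq promoter windows. The spacing of 1 base stands highest among all peaks at 2.37%, and the numbers above the bars give the member peaks with such a pair (2 at a spacing of 1 base, 1 each at 4 and 5).

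The counts behind the ratios were small. The input held 73251 counts at all peaks with a median of 7 per peak, ChIP replicate 1 held 426784 with a median of 37, and replicate 2 held 364261 with a median of 31. At the member peaks the input ran from 0 to 15 with a median of 7, ChIP replicate 1 from 15 to 93 with a median of 39, and replicate 2 from 15 to 79 with a median of 37. Totals of the whole libraries are not analysed here, and a ratio of ChIP to input is therefore on the scale of raw counts with the libraries taken as equally deep. Because whole testes were pooled, binding in fewer cells and weaker binding in more cells cannot be told apart.

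With the libraries taken as equally deep, 35 of 39 member peaks (89.7%) had ChIP above input at an adjusted p under 0.05 in the quasi-likelihood test of edgeR, fitted over all peaks, where 80.7% of all peaks were called. The study called the peaks on the merged reads of these same ChIP libraries, so the count describes the set and is not independent evidence of binding. The 4 member peaks that missed the threshold were 1 of Fgfr1, 1 of Fgfr2 and 2 of Spry4. If each ChIP library were 2 times as deep as the input, 0 of 39 would pass, and 0 of all peaks in the same test.

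Against the typical peak, a comparison that does not need the depths, edgeR with TMM scaling called 0 of 39 member peaks above (1.53% of all peaks) and 0 of 39 below (0.0497% of all peaks). At an unadjusted p under 0.05 there were 2 above, beside 7.89% of all peaks, and 0 below, beside 2.55%. DESeq2 called 0 in either direction, but gave an adjusted p at only 1 of the 39. On the TMM scale the median log2 fold change over the member peaks was 0.29, beside 0.02 over all peaks, and its range was -1.02 to 6.52. The upper end belongs to a peak with an input count of 0, where the fitted value depends on the prior count.

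**Figure D2:**
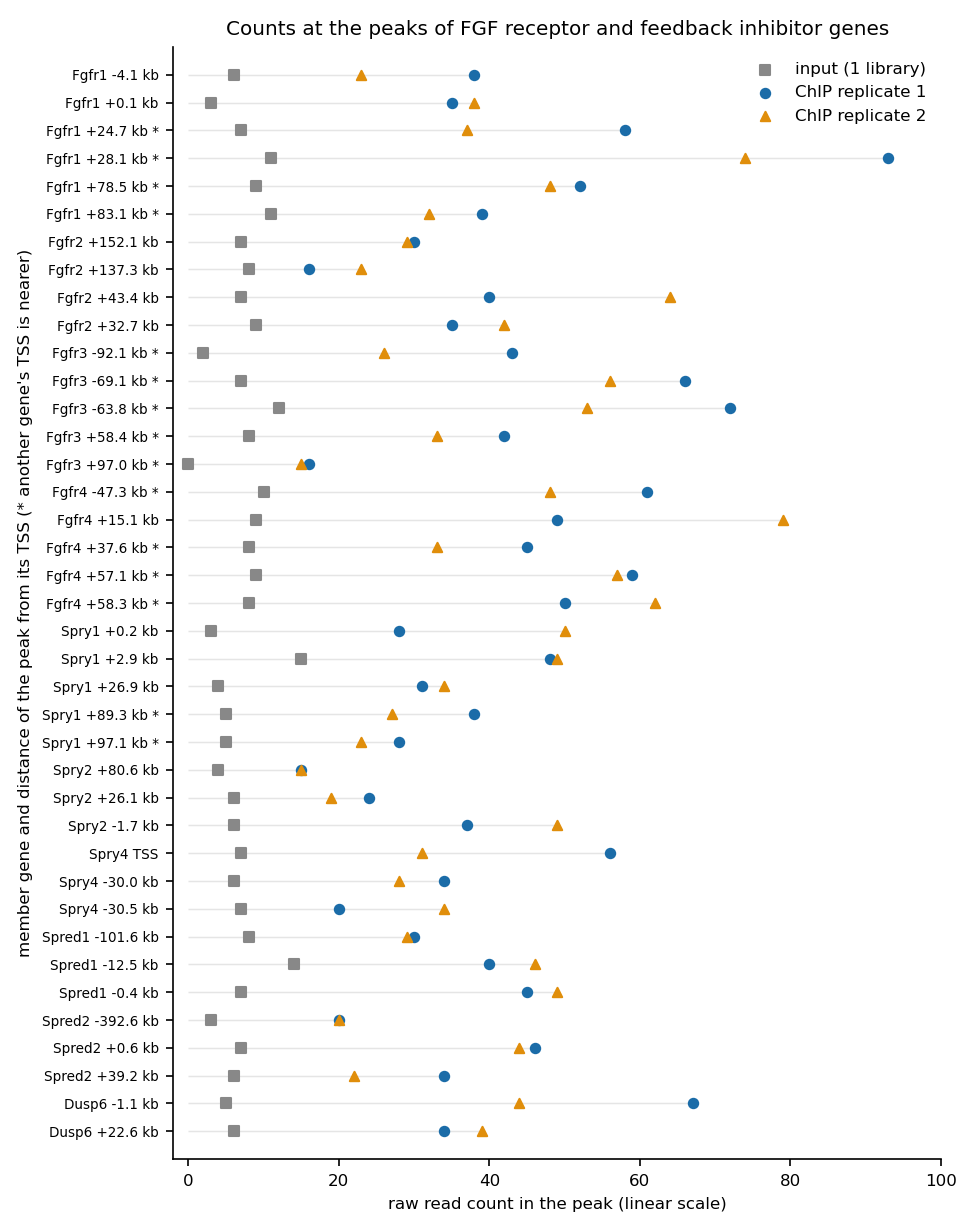
Raw read count (linear horizontal axis) at each of the 39 member peaks in the input library and both ChIP replicates. Rows name the member gene and the distance of the peak from its TSS, and an asterisk marks a peak with another gene's TSS nearer. Input counts sit between 0 and 15, ChIP counts between 15 and 93, and the ChIP counts lie above the input count in every row.

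Fgfr1 (gene ID 14182, chr8:25518759-25575718, plus strand) encodes a receptor used widely in mesenchymal cells. It had 6 peaks by the rule. At its start, a peak beginning 50 bp downstream of the TSS in the 5′ UTR (chr8:25518809-25519108) had counts of 3 in the input, 35 in ChIP replicate 1 and 38 in replicate 2. The replicates were close to each other and far above the input, a ratio of 12.2 with a 95% exact counting interval of 4.0 to 60.4. These intervals cover counting error only.

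A peak 4104 bp upstream of Fgfr1 (chr8:25514356-25514655), the one with the extended form AGGGGTCA near its centre, had 6, 38 and 23 counts in the same order. Both ChIP counts were above the input, and the peak missed the threshold against input (log2 fold change 2.32 ± 0.62 SE, adjusted p = 0.0530). Its summed ChIP count was higher than that of 41.1% of all peaks.

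Inside the gene, Fgfr1 carried 2 intronic peaks 24655 and 28129 bp downstream of its TSS. The nearest TSS of both belongs to Gm16159, a predicted gene that starts in the same region, so that by nearest gene they would not be linked to Fgfr1 and are classed as intergenic. The first (chr8:25543414-25543713) had 7, 58 and 37 counts. The second (chr8:25546888-25547187) had 11, 93 and 74 counts, the highest sum of ChIP counts in the set and higher than that of 95.9% of all peaks, with a ratio of 7.59 (4.13 to 15.5). Relative to the typical peak it stood at a log2 fold change of 0.60 ± 0.44 SE (adjusted p = 0.723), so its high count went with a ratio that did not pass the test.

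The other 2 peaks in the Fgfr1 window were at the starts of neighbouring genes. A peak over the TSS of Letm2, 78505 bp downstream, had 9, 52 and 48 counts. A peak 167 bp upstream of Nsd3, 83059 bp downstream of the Fgfr1 TSS, had 11, 39 and 32.

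Fgfr2 (gene ID 14183, chr7:130162451-130266808, minus strand) encodes the receptor through which FGF9 is known to act in the fetal testis. All 4 of its peaks had Fgfr2 as the nearest gene, and none lay within 10 kb of the TSS. The intronic peak with 4 half-sites (chr7:130223064-130223363), 43445 bp downstream of the TSS, had 7 input, 40 and 64 ChIP counts, a ratio of 7.43 (3.48 to 18.9). Replicate 2 was the higher here although that library has the smaller total. A second intronic peak 32728 bp downstream (chr7:130233781-130234080), with CAAGGTCA 17 bp from its centre, had 9, 35 and 42 counts and a ratio of 4.28 (2.14 to 9.71).

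Beyond the 3′ end of Fgfr2, a pair of intergenic peaks lay outside the window and were members by nearest gene only. The peak 137251 bp downstream of the TSS (chr7:130129258-130129557) had 8, 16 and 23 counts, the lowest ratio in the set at 2.44 (1.12 to 6.04), and it was not called above input (adjusted p = 0.0807). The peak 152053 bp downstream (chr7:130114456-130114755), which holds AGAGGTCA 78 bp from its centre, had 7, 30 and 29 counts and a ratio of 4.21 (1.92 to 10.9).

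Fgfr3 (gene ID 14184, chr5:33721724-33737068, plus strand) encodes a receptor best known from cartilage. No peak had Fgfr3 as the nearest gene. The closest of 5 window peaks lay 58386 bp downstream, in an intron of Letm1, with 8, 42 and 33 counts. On the upstream side, peaks over the TSSs of Fam53a (2, 43 and 26) and Slbp (7, 66 and 56), and 1 at the start of Tmem129 (12, 72 and 53), lay 92071, 69094 and 63752 bp away.

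The fifth, 97017 bp downstream of Fgfr3 and 22024 bp upstream of Nsd2 (chr5:33820789-33821088), had 0 input counts, with 16 and 15 in the ChIP libraries. The ChIP replicates were 5.33 and 5.00 times a floor of 3 counts set for the input, and these values are not lower limits. For this peak the exact counting interval of mean ChIP over input had a lower end of 3.96. Its ChIP counts were among the lowest in the set, above those of 2.73% of all peaks. This peak and the one at Fam53a were the 2 member peaks with an unadjusted p under 0.05 above the typical peak. Their adjusted p in edgeR was 0.376 and 0.435, and both are members by the window only.

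Fgfr4 (gene ID 14186, chr13:55152818-55168759, plus strand), whose product is known in liver for its response to FGF15, had 1 peak with Fgfr4 as the nearest gene. That peak was centred in a coding exon 15063 bp downstream of the TSS, near the 3′ end of the gene (chr13:55167881-55168180), and is the one with 3 half-sites. It had 9 input, 49 and 79 ChIP counts and a ratio of 7.11 (3.63 to 15.9), above 89.5% of all peaks by summed ChIP count. The other 4 window peaks had 8 to 10 input counts. They were over the TSS of Zfp346 (10, 61 and 48), 19043 bp upstream of Nsd1 (8, 45 and 33) and at 2 places in Nsd1 introns (9, 59 and 57 for the first, 8, 50 and 62 for the second).

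**Figure D3:**
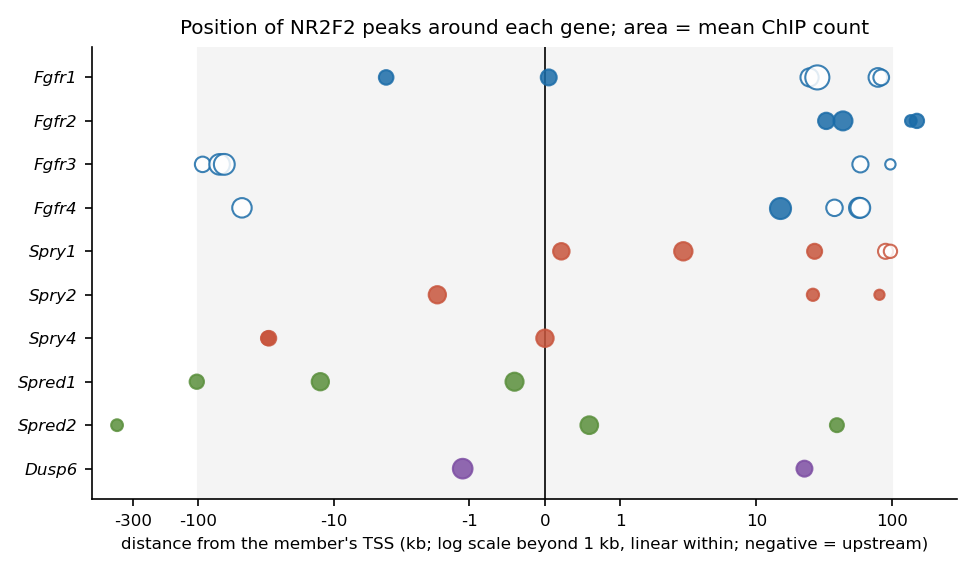
Distance of each member peak from the TSS of its gene (kb, log scale beyond 1 kb and linear within, negative values upstream), with circle area proportional to the mean ChIP count. Filled circles have the member as nearest gene and open circles lie in the window of 100 kb (shaded) with another gene nearer. Fgfr3 has open circles only, and Fgfr1, Spry1, Spry4, Spred1 and Spred2 have a filled circle within 1 kb of the TSS.

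Among the inhibitors, Sprouty genes had 11 peaks. Spry1 (gene ID 24063, chr3:37639947-37644599, plus strand) had 5, of which 3 had it as the nearest gene. A peak in the first intron, 217 bp downstream of the TSS (chr3:37640164-37640463), had 3 input counts and 28 and 50 in the ChIP replicates. The ratio was 13.0 with a wide interval of 4.29 to 64.4, and both replicates lay above the input. A peak 26860 bp downstream (chr3:37666807-37667106) had 4, 31 and 34 counts and a ratio of 8.13 (3.03 to 30.7).

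The coding-exon peak of Spry1 with the row of 3 half-sites, 2903 bp downstream of the TSS (chr3:37642850-37643149), had 15, 48 and 49 counts. This was the highest input count in the set, and the ratio of 3.23 (1.87 to 6.0) was among the lowest although both replicates were nearly equal. The remaining 2 peaks, 89337 and 97116 bp downstream, are nearest to the predicted gene Gm5148 and had 5, 38 and 27 counts and 5, 28 and 23 counts.

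Spry2 (gene ID 24064, chr14:105891947-105896819, minus strand) had 3 peaks, all with Spry2 as the nearest gene. The peak 1724 bp upstream of its TSS (chr14:105898543-105898842) had 6, 37 and 49 counts and a ratio of 7.17 (3.16 to 20.1). Both downstream peaks were weak. The one with AGAGGTCA near its centre, 26114 bp downstream (chr14:105870406-105870705), had 6, 24 and 19 counts, a ratio of 3.58 (1.52 to 10.3). The one 80615 bp downstream (chr14:105815905-105816204) had 4, 15 and 15, the lowest ChIP counts in the set, above those of 1.91% of all peaks.

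Spry4 (gene ID 24066, chromosome 18, minus strand) had 3 peaks. The peak over its own TSS had 7 input counts and 56 and 31 in the ChIP replicates. The ratio was 6.21 (2.89 to 15.9), and the peak missed the threshold against input (log2 fold change 2.61 ± 0.71 SE, adjusted p = 0.0551). A pair of peaks 29953 and 30489 bp upstream, with 236 bp between them, had 6, 34 and 28 counts and 7, 20 and 34 counts. The first was called above input and the second was not (adjusted p = 0.0712). The next peak beyond the window, 116944 bp from the Spry4 TSS and nearest to Ndfip1, was not a member and had 14, 40 and 25 counts.

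Spred genes encode Sprouty-related proteins that recruit the RAS inhibitor neurofibromin to the membrane. Spred1 (gene ID 114715, chr2:117121071-117182279, plus strand) had 3 peaks, all upstream. The promoter peak 403 bp upstream (chr2:117120369-117120668) had 7, 45 and 49 counts and a ratio of 6.71 (3.13 to 17.2). The peak 12523 bp upstream (chr2:117108249-117108548), with AGAGGTCA and CAAGGTCA, had 14, 40 and 46 counts. Its ratio was 3.07 (1.73 to 5.85), with a high input rather than low ChIP counts. A peak 101613 bp upstream (chr2:117019159-117019458), just past the window, had 8, 30 and 29 counts.

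Spred2 (gene ID 114716, chr11:19924442-20022597, plus strand) had 3 peaks. The peak in its first intron, 587 bp downstream of the TSS (chr11:19925029-19925328), had 7, 46 and 44 counts and a ratio of 6.43 (3.0 to 16.4). Another intronic peak 39193 bp downstream (chr11:19963635-19963934) had 6, 34 and 22. The farthest peak of the set, 392559 bp upstream (chr11:19531584-19531883), had 3, 20 and 20 counts, a ratio of 6.67 (2.12 to 33.7) on few counts.

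Dusp6 (gene ID 67603, chr10:99263231-99267489, plus strand) had 2 peaks. The upstream peak at 1122 bp (chr10:99261810-99262109) had 5, 67 and 44 counts, a mean ChIP count of 55.5 ± 16.3 (SD, n = 2) and a ratio of 11.1 (4.62 to 34.9). It was above input in edgeR (log2 fold change 3.44 ± 0.60 SE, adjusted p = 0.0326) and at 1.14 ± 0.61 SE relative to the typical peak (adjusted p = 0.522). The peak 22613 bp downstream (chr10:99285844-99286143) had 6, 34 and 39 counts and a ratio of 6.08 (2.66 to 17.1).

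**Figure D4:**
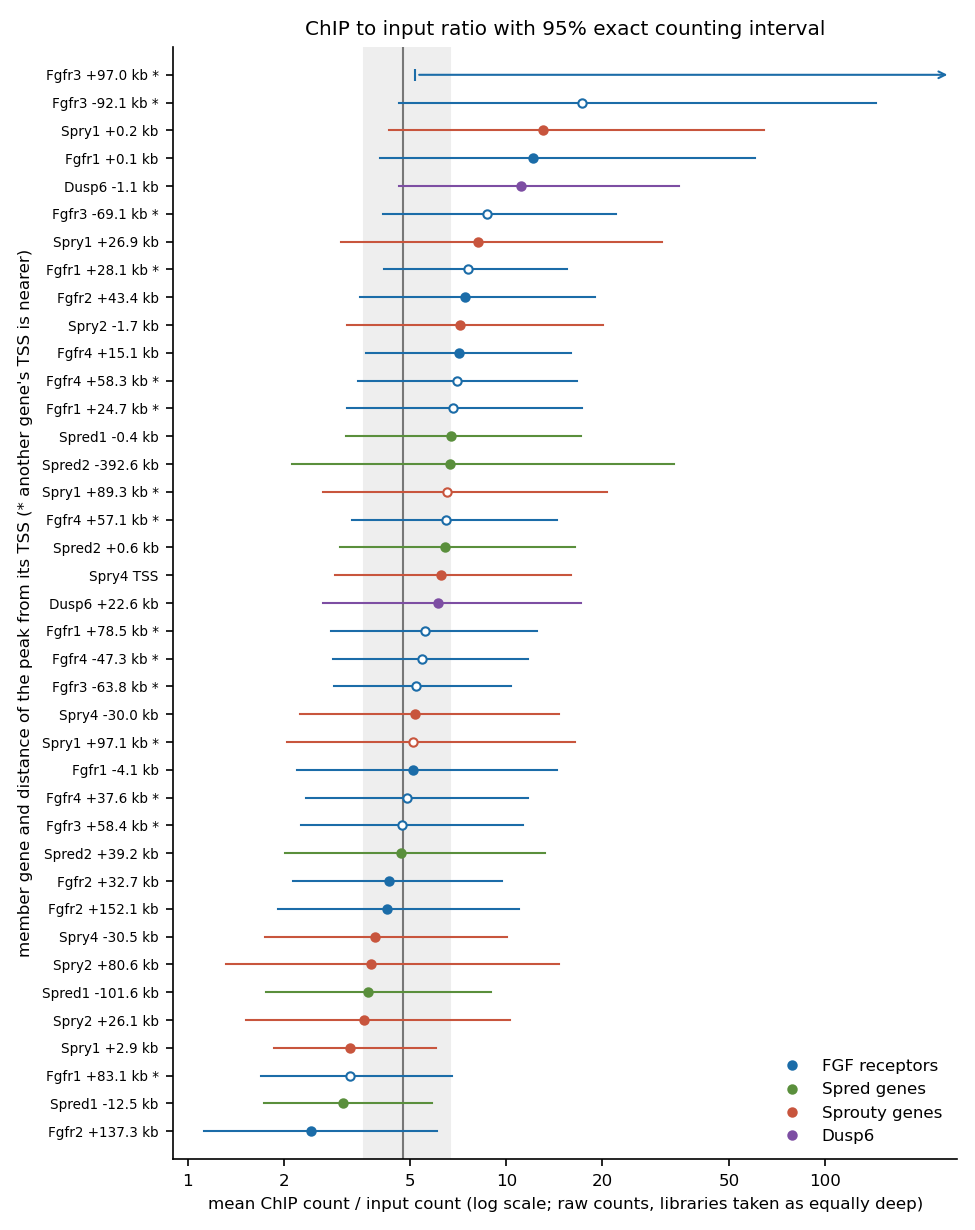
Ratio of mean ChIP count to input count (log horizontal axis, raw counts with libraries taken as equally deep) for the 39 member peaks in order of ratio, with 95% exact counting intervals. Filled points have the member as nearest gene and open points with an asterisk do not. The vertical line and grey band are the median and the middle 50% of all peaks, the arrow is the peak with 0 input counts, drawn from the mean ChIP count over the floor of 3 input counts (5.17), and the points run from 2.44 to 17.3.

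In order of ratio among peaks with an input count, those at Fam53a in the Fgfr3 window, Spry1 at 217 bp, Fgfr1 at 50 bp and Dusp6 at 1122 bp led the set, and neighbouring intervals overlapped from the top to the bottom of the order. By role, the median log2 ratio was 2.52 over 20 receptor peaks, with 0.5 added to each count, and 2.51 over 19 inhibitor peaks. Of the receptor peaks, 7 had the receptor as the nearest gene, with a median of 2.25, and 17 inhibitor peaks had the inhibitor as the nearest gene, with a median of 2.51. The 24 peaks with a member as the nearest gene had a median of 2.39 and the full set 2.51, beside 2.24 over all peaks. The difference of 0.27 from all peaks was 0.19 without ChIP replicate 1, 0.18 without replicate 2, 0.15 for the nearest-gene peaks and 0.051 over the 6 member peaks with at least 10 input counts. In all, 25 of 39 member peaks were above the median of all peaks, with 15 of the 39 chosen by distance to a member and lying nearer to another gene.

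Position is given as a description, since the rule itself was set by distance. Of the member peaks, 7 (17.9%) were TSS proximal, meaning over a TSS or up to 1 kb upstream, beside 36.0% of all placed peaks. A further 4 (10.3%) were up to 10 kb upstream, beside 4.34%, 12 (30.8%) were in the body of the nearest gene, beside 34.0%, and 16 (41.0%) were intergenic, beside 25.7%. Of the 7 TSS proximal peaks only 2 were at a member's own TSS, those of Spry4 and Spred1, and the others were at neighbouring genes. Median GC content was 58.3% in the member peaks and 60.7% in all peaks.

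The ChIP replicates differed at 0 of 39 member peaks by an exact two-sided binomial test after Benjamini-Hochberg adjustment over all peaks, beside 0.0993% of all peaks called. At an unadjusted p under 0.05 there were 4 (10.3%), beside 8.83% of all peaks, and all 4 had the higher count in replicate 2. By this exact test they were the Fgfr4 exon (49 and 79, p = 0.0005, adjusted p = 0.140), the Fgfr2 intron (40 and 64, p = 0.0016), the Spry1 intron (28 and 50, p = 0.0020) and the Spry4 peak at 30489 bp (20 and 34, p = 0.0138). The test compares these 2 libraries by counting error and not any conditions.

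**Figure D5:**
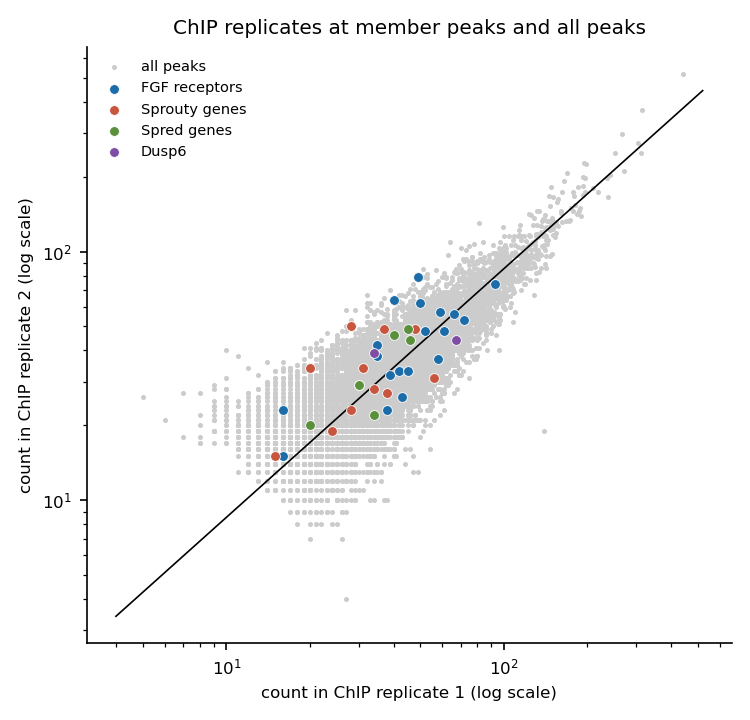
Count in ChIP replicate 2 against replicate 1 (both axes log) for all 10069 peaks in grey and the member peaks in colour by role, with the line at the ratio of the totals at peaks. The member peaks lie within the cloud of all peaks, from 15 to 93 counts in replicate 1 and 15 to 79 in replicate 2.

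The rest of the pathway was taken as 6 lists with 61 further genes. Of these, 27 were the nearest gene to a peak, with 32 peaks between them, of which 26 were above input at equal depth (80.7% of all peaks) and 0 above or below the typical peak. With a peak within 50 kb of a TSS in place of the nearest gene, 40 of the 61 genes had one. Over all 26180 curated genes, 30.2% were nearest to a peak and 54.5% had a peak within 50 kb. Among 18 FGF ligand genes, 5 had a peak (Fgf1, Fgf2, Fgf7, Fgf9 and Fgf18), all 5 above input, and 11 had a peak within 50 kb. The highest count was in an intron of Fgf1 with 7 input, 66 and 53 ChIP counts. Fgf9 itself had 6, 19 and 15 counts. Among 6 co-receptor and receptor-like genes, 3 were nearest to a peak, 2 of these peaks above input, and all 6 had a peak within 50 kb. The highest count was at Flrt2, a membrane protein that binds FGF receptors, with 7, 42 and 34.

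Downstream of the receptors, 8 of 17 adaptor and RAS-MAPK genes were nearest to 11 peaks, 9 of them above input beside 80.7% of all peaks, and 13 had a peak within 50 kb. Gab1, a docking protein, had the highest count with 9, 80 and 67 in its 5′ UTR, 102 bp from the TSS. Of 9 other feedback inhibitor genes, 2 were nearest to a peak, 1 above input, and 3 had a peak within 50 kb. Of these, Il17rd, also named Sef, an inhibitor at the membrane, had 1 input count with 41 and 26 in the ChIP replicates over its TSS. Relative to the typical peak this was a log2 fold change of 2.70 ± 1.03 SE (adjusted p = 0.222), resting on that 1 input count. Spry3, in the same list, was not placed by the annotation used.

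The Etv genes encode transcription factors induced by FGF signalling. Of these 3 genes, 2 had peaks, with 1 of 3 peaks above input, and the highest count was in an Etv4 intron with 5, 46 and 21, which did not pass (adjusted p = 0.0821). Of 8 genes for heparan sulfate enzymes, which build or trim the sugar chains that FGF receptors need, 7 were nearest to a peak and 5 had a peak within 50 kb. All 8 of the peaks nearest to them were above input, beside 80.7% of all peaks. The highest was 103 bp upstream of Ndst1 with 8, 52 and 62 counts.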

How the data were processed

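Counts were analysed for 3 libraries of pooled E14.5 testes of CD-1 mice: 1 input and 2 NR2F2 ChIP replicates, grouped by their labels. The authors deposited raw counts of reads per peak for each library. Per the study's methods and the submitters' processing notes, reads were trimmed (Trim Galore 0.6.7), mapped to mm10 with Bowtie 2, kept above a mapping quality and stripped of duplicates (Picard 1.110), and the merged ChIP replicates were used to call peaks (HOMER 4.11.1), resized to 300 bp. The sources used here do not give how reads were assigned to peaks. Peaks were thus called on the reads counted in them, and removing duplicates limits high counts. The input, with a median of 7 counts per peak, limits the precision of each ratio. The study describes the ChIP libraries as independent experiments and biological replicates. The sources used here do not give whether each had its own pool of testes, and p-values measure the spread between these libraries. The input has no replicate and was assumed to vary like the ChIP libraries.

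The quasi-likelihood test of edgeR 4.0.16 (limma 3.58.1, R 4.3.3) was fitted on all 10069 peaks, once with libraries taken as equally deep and once with TMM scaling, with Benjamini-Hochberg adjustment over all peaks. DESeq2 1.42.0 was an alternative. Standard errors were the size of the log2 fold change over the square root of F, and the fits were tested on simulated data, where they recovered only part of the enriched, raised or lowered peaks. ChIP replicates were compared by an exact binomial test. Distances run from the nearer edge of a peak to the TSSs of 45756 curated RefSeq transcripts (26180 genes), and 5 peaks on unplaced contigs had no position. Other statistics used Python 3.11.15, numpy 2.4.6, scipy 1.17.1, pandas 2.3.3 and pysam 0.24.0.

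Every member peak is described. Of each pathway list, the peak with the highest summed ChIP count is named, together with any peak called relative to the typical peak. Fgf9 was added outside this rule because it is known in the fetal testis. The member genes and the lists were chosen with earlier results of these data known. The counts cover called peaks and mark no cell type, so the tissue label could not be checked against marker genes. Alternatives covered the depth of ChIP against input, the scaling, the test, robust fitting, a minimum of 10 input counts, the added count, the window, the gene models and the letters searched.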

Additional observations from a re-analysis of the deposited data

How the results depend on the processing

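No paired analysis was possible because there was 1 input library for 2 ChIP libraries. Of 39 member peaks, the count above input at equal depth was 35. It was 39 with ChIP taken as 2 times shallower, with the replicates scaled to each other or with robust fitting, and 27 with DESeq2 (10 calls lost, 2 gained). Over all peaks the same settings called 9858, 9853, 9816 and 6006, beside 8122. It was 0 with ChIP taken as 2 times deeper, and 6 with at least 10 input counts, where only 6 member peaks were tested. Over all peaks the deeper setting called 0, and the input minimum called 2149 of 2427 tested. The counts above, below or differing between replicates stayed at 0 under the alternatives run for each. DESeq2 gave an adjusted p at only 1 member peak, and the input minimum left 6, so 0 there rests on few peaks. Over all 10069 peaks the count above the typical peak was 154, with 39 for DESeq2 size factors in edgeR and 102 without TMM. It was 22 of the 699 peaks with an adjusted p in DESeq2, and 58 of 2427 with at least 10 input counts. Those below numbered 5, with 0 for DESeq2 size factors in edgeR and 7 without TMM. They were 0 of 699 with DESeq2 and 4 of 2427 with at least 10 input counts. The peaks that differed between replicates numbered 10, and 23 with both ChIP libraries taken as equally deep. Without TMM the median of all peaks shifted from 0.02 to -0.10 (log2), and 4 uncalled member peaks changed sign; 1 did so with DESeq2 size factors.

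The rule gave 24 peaks by nearest TSS only, 28 with a window of 50 kb and 35 with all RefSeq transcripts. The count of further pathway genes with a peak, 27 by nearest TSS, was 40 within 50 kb. The median log2 ratio of 2.51 was 1.97 with 5 added to each count, 2.0 with at least 10 input counts, and 2.32 to 2.53 with either ChIP replicate left out. Its difference from all peaks, 0.27, was 0.22 with 1 added, 0.051 with at least 10 input counts, 0.15 by nearest TSS only, and 0.18 to 0.19 with either replicate left out. It kept its sign throughout but moved by over 1.5 times under the nearest-only rule, the input minimum and without replicate 2. The share with the extended form, 10.3%, was 16.7% by nearest TSS only (4 of 24), 7.69% in the central 100 bp and 64.1% for the half-site. Over all placed peaks the share was 10.5%, with 5.19% in the central 100 bp and 58.9% for the half-site. The cause of these shifts was not tested. The depth of the input limits every ratio.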

Other observations

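In the reference genome, repeats and simple sequence are soft-masked, and 20 of 39 member peaks (51.3%) held a masked base, beside 48.4% of all placed peaks. The half-site pair 1 base apart in the Fgfr2 intron lay wholly in masked bases, and so did another half-site of that peak, while the Spry1 pair lay in none. Over all placed peaks with such a pair, it lay wholly in masked bases in 80 of 239 (33.5%). Only 1 member peak was masked over most of its length, the one 97116 bp downstream of Spry1, beside 114 of all placed peaks (1.13%). These shares were computed after the sequences had been seen and are given as values.

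Besides the pair upstream of Spry4, a second pair of member peaks lay within 1 kb of each other. The 2 peaks in Nsd1 introns within the Fgfr4 window began 57064 and 58292 bp downstream of the Fgfr4 TSS, with 59 and 57 counts in the ChIP replicates at the first and 50 and 62 at the second.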
